A study of Mus musculus with 8 samples.

Results

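The intragenic members described here are 7334 of the 28057 peaks that the authors called in the ChIP library of wild-type mouse chondrocytes, which is 26.1% of that list. Each was chosen by 4 conditions: a length under 5000 bp, a centre inside a protein-coding gene of RefSeq GRCm38.p6, a distance of more than 5 kb from the start and the end of every protein-coding gene, and an overlap of at least 1 bp with a peak of at least 1 of 3 knockout lists. In the wild-type list 27349 peaks on the assembled chromosomes were under 5000 bp, 20712 of them were centred in a gene, and 8590 also lay more than 5 kb from every gene end. These 8590 candidates split into the 7334 members and 1256 peaks that no knockout list overlapped. The members sat in 3528 host genes, and 45 of them lay in 2 or more overlapping hosts. Their nearest gene end was a median of 23.3 kb away (interquartile range 11.2 to 51.0 kb).

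The study profiled cultured chondrocytes from mouse cartilage with an antibody sold against H3K27me3, in cells labelled Ezh2-Cko, Utx-cKO, Jmjd3-Cko and wild type, written here as Ezh2-cKO, Utx-cKO, Jmjd3-cKO and wild type. Its stated purpose was to set the mark in the 3 deletions against wild type. Each genotype had 1 ChIP and 1 input library, so no comparison between genotypes carries a test, and the labels used here give no Cre driver, age or number of animals. The ChIP libraries held 34786292 fragments in Ezh2-cKO, 34359111 in Utx-cKO, 25655346 in Jmjd3-cKO and 29222251 in wild type, and the lists held 33739, 49405, 27013 and 28057 peaks in that order of genotypes. The prefixes of the library titles differ between Ezh2-cKO, wild type and the pair of Utx-cKO and Jmjd3-cKO, so genotype and a possible library batch cannot be told apart outside that pair. The 10 chondrocyte markers examined each had a peak in every list, and 7 of them hosted a member. Of 8 markers of bone, vessel, blood and muscle cells, 4 had a peak in Ezh2-cKO, 5 in Utx-cKO, 5 in Jmjd3-cKO and 4 in wild type. Cdh5, Myod1 and Myog had none in any list. These counts are small and were not matched for gene length. Of all genes with any base more than 5 kb from gene ends, 25.6% hosted a member. A wild-type peak within 2 kb of either end was found for 81.5% of those hosts and 68.9% of the other such genes. Sox9, Comp, Myod1 and Myog have no such base and could not host a member. Peak lists do not show whether the deleted genes were lost. The label is the sole source for the mark, and which histone mark the peaks carry was not tested. In wild type they lay over the chondrocyte markers, over 4 of the 8 other markers and, as given below, over CG-rich starts.

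H3K27me3 is trimethylation of lysine 27 of histone H3, written by Polycomb repressive complex 2 with Ezh2 or its relative Ezh1 as the catalytic subunit. Utx, also named Kdm6a, and Jmjd3, also named Kdm6b, are the enzymes that take it off. In mammals the complex is recruited mainly to stretches rich in CG dinucleotides, many of which are gene starts, and the mark is associated with silent developmental genes. Starts rich in CG also carry other histone marks, among them those of active genes. In cartilage, Polycomb and the demethylases take part in chondrocyte differentiation and in the growth plate.

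Some members lay over transcription starts that RefSeq lists inside genes, and their letters are shown first because CG content set these starts apart from other internal starts. The sequences are RefSeq windows of GRCm38.p6, 250 bases before to 50 after each start, read in the direction of the gene with each CG in capitals. A start is called under a member when its window overlaps the member by 1 bp or more, so part of a window can lie outside. Dst, the gene of the cytoskeletal linker dystonin, has an internal start under a member at chr1:34011345-34011644 (plus strand) with 31 CG and another under no wild-type peak at chr1:34160010-34160309 (plus strand) with 6 CG. Phc2, a subunit of Polycomb repressive complex 1, has a start under a member at chr4:128727321-128727620 (plus strand) with 45 CG and another under no wild-type peak at chr4:128688488-128688787 (plus strand) with 2 CG. Sox6, a transcription factor needed for cartilage formation, is the counterexample, with only 4 CG at its start under a member at chr7:115824661-115824960 (minus strand). The Zfp638 start at chr6:83914103-83914402 (plus strand), in a gene for a zinc-finger protein, has 17 CG and lies under one of the most enriched members. All 4 genes fall under the rule for named genes, and these windows were picked after their values were seen.
Dst, under a member: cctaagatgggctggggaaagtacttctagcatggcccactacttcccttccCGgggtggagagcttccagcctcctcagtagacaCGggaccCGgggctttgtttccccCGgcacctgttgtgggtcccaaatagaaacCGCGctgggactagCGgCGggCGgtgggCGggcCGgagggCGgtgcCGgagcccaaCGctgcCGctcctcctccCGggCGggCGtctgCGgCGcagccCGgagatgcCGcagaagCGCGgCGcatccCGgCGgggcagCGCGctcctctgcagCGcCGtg
Dst, under no wild-type peak: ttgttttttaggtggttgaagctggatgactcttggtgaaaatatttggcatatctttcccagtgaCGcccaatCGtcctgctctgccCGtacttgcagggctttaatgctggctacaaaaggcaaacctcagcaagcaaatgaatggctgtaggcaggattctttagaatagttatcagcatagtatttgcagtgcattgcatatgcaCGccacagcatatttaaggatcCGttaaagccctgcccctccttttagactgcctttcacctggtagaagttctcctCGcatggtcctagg
Phc2, under a member: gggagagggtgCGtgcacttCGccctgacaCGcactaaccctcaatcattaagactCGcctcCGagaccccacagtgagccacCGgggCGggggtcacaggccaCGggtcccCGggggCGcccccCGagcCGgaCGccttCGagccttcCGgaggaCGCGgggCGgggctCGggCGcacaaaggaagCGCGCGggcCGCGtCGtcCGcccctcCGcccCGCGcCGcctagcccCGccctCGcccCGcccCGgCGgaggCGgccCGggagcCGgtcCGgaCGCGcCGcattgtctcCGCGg
Phc2, under no wild-type peak: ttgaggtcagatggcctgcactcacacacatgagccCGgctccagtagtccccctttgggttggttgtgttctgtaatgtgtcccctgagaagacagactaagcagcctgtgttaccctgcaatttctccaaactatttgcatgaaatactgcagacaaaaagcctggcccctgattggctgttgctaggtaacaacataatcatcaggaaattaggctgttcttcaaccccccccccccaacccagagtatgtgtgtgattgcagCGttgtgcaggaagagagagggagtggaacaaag
Sox6, under a member: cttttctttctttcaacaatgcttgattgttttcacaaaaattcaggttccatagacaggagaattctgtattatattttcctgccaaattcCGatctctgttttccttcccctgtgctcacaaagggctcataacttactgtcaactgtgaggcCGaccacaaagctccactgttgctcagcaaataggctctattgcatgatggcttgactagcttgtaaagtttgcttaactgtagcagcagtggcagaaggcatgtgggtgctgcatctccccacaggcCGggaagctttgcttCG
Zfp638, under a member: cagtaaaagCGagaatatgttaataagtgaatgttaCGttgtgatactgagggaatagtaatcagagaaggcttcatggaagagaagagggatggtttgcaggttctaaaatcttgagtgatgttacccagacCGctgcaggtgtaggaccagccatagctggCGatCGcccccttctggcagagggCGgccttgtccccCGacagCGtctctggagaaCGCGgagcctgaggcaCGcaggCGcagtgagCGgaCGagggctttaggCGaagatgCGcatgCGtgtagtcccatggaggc

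Most members were weak and short, and members over annotated starts were more often strong than the others. Fold enrichment, the authors' value per peak of ChIP over local input, had a median of 2.84 in wild type over the members (interquartile range 2.59 to 3.29), against 3.37 over all wild-type peaks. The median length was 745 bp, against 997 bp for all wild-type peaks. A fold enrichment of 4 or more was reached by 998 members, or 13.6%, against 41.8% of all wild-type peaks and 74.8% of the 11810 peaks centred within 2 kb of a gene end. Among the 4636 intergenic peaks it was 13.4%. Members alone were filtered by knockout overlap, which raises their share: of the 1256 candidates left out, 1 reached 4. The longest members were 4955 bp in Slc3a2, 4920 bp in Tjap1 and 4914 bp in Sobp, and the shortest peaks that the length limit left out were 5028 bp in Dnm1, 5043 bp in Phldb2 and 5076 bp in Slc23a2. The members nearest to a gene end, in Chtop, Lmx1b and Oxsm, had fold enrichments of 2.66, 2.91 and 5.98, and the nearest peaks on the other side of the 5 kb limit, in Pip5k1c, Mob3a and Dido1, had 2.55, 2.44 and 2.53. These values belong to the rule or to the list it was drawn from and are a description.

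The start table has no chromosome 18, so the following counts cover 7062 members, leaving out the 272 on that chromosome. A window of a listed start was overlapped by 859 members, or 12.2% (95% interval 11.4 to 12.9%, exact binomial, as are all intervals given here, covering counting error alone), against 4 of 1211 left-out candidates, or 0.33% (0.0901 to 0.844%). The overlap condition of the rule made these groups, and the left-out candidates were shorter, with a median of 385 bp against 745 bp for all members. Their shares over a start were not compared at like length. Off chromosome 18, 38.4% of all wild-type peaks, 71.6% of gene-end peaks and 7.31% of intergenic peaks lay over a start. The members' share was thus below that of all wild-type peaks. For 742 of the 859 members over a start, it was a start of the host gene itself. In 220 of those it was the only start listed for the host although the member's centre lay more than 5 kb inside the gene's outer ends. The other 117 covered a start of another gene lying inside the host. At the median, members over a start were 4.86-fold enriched and 1605 bp long, against 2.79-fold and 681 bp for members over no start. A fold enrichment of 4 or more was found for 536 of 859 members over a start, or 62.4%, against 417 of 6203 over no start, or 6.72%. Of the 100 members with the highest fold enrichment, 79 lay over a start.

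Length moved with both measures. Below 500 bp, 2.65% of members lay over a start, where their median fold enrichment was 2.67 over a start and 2.70 elsewhere. From 500 bp to under 1000 bp the share was 7.72% and the medians 3.62 and 2.77. From 1000 bp to under 2000 bp the share was 18.5% and the medians 4.82 and 2.89, and from 2000 bp it was 38.8% with 6.83 and 3.17. Within each length class from 500 bp upwards, members over a start were thus the more enriched ones.

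**Figure D1:**
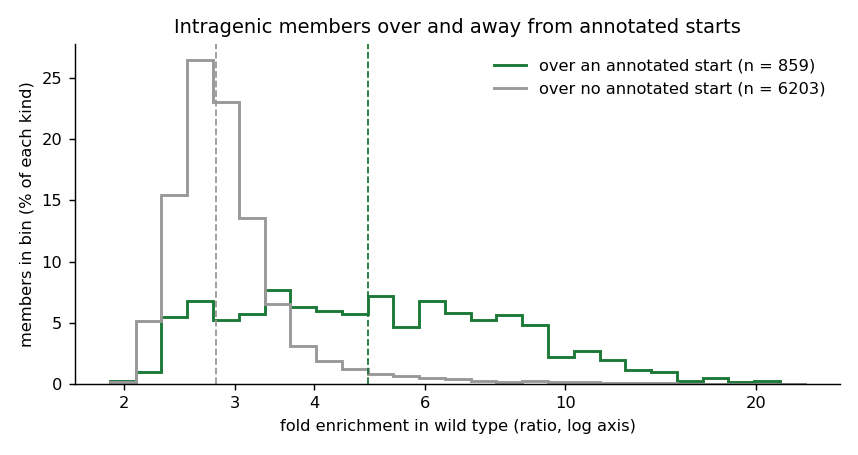
Distribution of the wild-type fold enrichment (log axis) of members over an annotated start (green, 859 peaks) and over none (grey, 6203 peaks), each as a percentage of its kind, with dashed lines at the medians of 4.86 and 2.79. Most of the grey curve lies below 4, with a thin tail above: 417 of the 6203 reach 4 or more, the highest at 22.27. The green curve spreads to about 20.

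The 10 most enriched members, taking 1 per gene, included 8 over a start of their own host. The most enriched had no listed start: it lay in Zfhx3, a large homeobox transcription factor gene, at chr8:108702764-108705439, with fold enrichments of 13.44 in Ezh2-cKO, 15.61 in Utx-cKO, 23.67 in Jmjd3-cKO and 22.27 in wild type. Over a start of Baz2b, a bromodomain gene, the values were 19.43 in Ezh2-cKO, 21.51 in Utx-cKO, 23.33 in Jmjd3-cKO and 20.65 in wild type. Gabpb1, a subunit of an ETS-family activator, had 20.88 in Ezh2-cKO, 25.94 in Utx-cKO, 23.86 in Jmjd3-cKO and 20.28 in wild type. Each list is scaled to its own pair of libraries, so these values stand side by side and their differences were not read as changes. The member at the Zfp638 start printed above had 15.06 in Ezh2-cKO, 23.18 in Utx-cKO, 23.02 in Jmjd3-cKO and 19.76 in wild type. The next 4 were in Dyrk2, a kinase (17.37 in wild type), Zfp800, a zinc-finger protein (16.92), Tlk2, a kinase acting in chromatin assembly (16.73), and Larp1, which binds mRNAs of the translation machinery (16.68). The last pair were in Npas3, a neuronal transcription factor, over a start of the gene model Gm51419 (15.86), and in Atp2c1, a Golgi calcium pump (15.42). All 10 had a peak in each knockout list.

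CG content separated the internal starts under members from those under no peak. Off chromosome 18, the start table lists 4284 starts more than 5 kb inside protein-coding genes. Of these 1038, or 24.2%, lay under a member, 107 under another wild-type peak and 3139 under none. A start was counted as under a peak when its 300-base window overlapped the peak by 1 bp or more. The window under a member had a median of 16 CG and 60.0% G+C, against 4 CG and 48.3% under no wild-type peak and 7 CG and 52.7% over all 32817 listed starts. The ratio of observed to expected CG was 0.6 or more in 53.9% of windows under a member, against 3.44% under no wild-type peak and 35.8% over all starts. The share under a member climbed with this ratio, with 4.84% of starts below 0.2, 12.8% from 0.2 to 0.4, 35.2% from 0.4 to 0.6, 68.0% from 0.6 to 0.8 and 87.3% (83.3 to 90.5%) from 0.8. Starts in 1 gene or close together are not independent, and the rule chose peaks, not letters.

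The same order held by gene type and within genes. Starts of protein-coding genes lay under a member in 832 of 2151 cases, or 38.7%, against 206 of 2133, or 9.66%, for starts of other genes. Among protein-coding genes the median was 17 CG under a member and 4 CG under no wild-type peak, and among other genes it was 11 and 3 CG. In 149 genes with internal starts of both kinds, the mean CG count was higher under the member in 124, equal in 6 and lower in 19. In such genes the median was 13 CG under a member and 4.5 CG under no wild-type peak. The Dst and Phc2 pairs printed above are of the common kind.

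**Figure D2:**
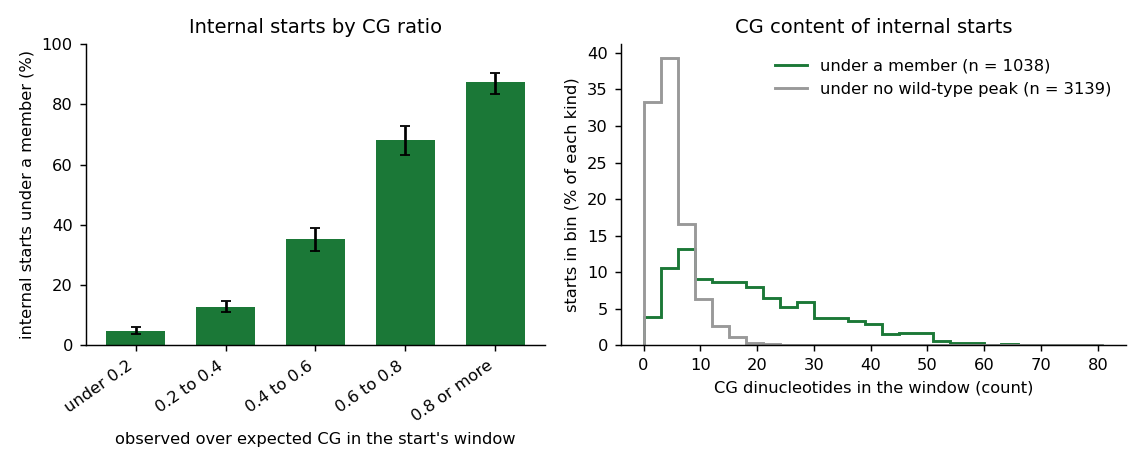
Left, percentage of internal starts under a member by the ratio of observed to expected CG in the 300-base window, with 95% exact binomial intervals, climbing to 87.3% in the highest class. Right, number of CG dinucleotides per window for starts under a member (green, 1038) and under no wild-type peak (grey, 3139), each as a percentage of its kind, with medians of 16 and 4.

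Short motifs were counted in the same windows on both strands, as letters and not as binding sites. GGGCGG, the core of the GC box, was in 55.5% of windows under a member, 10.3% under no wild-type peak and 35.6% of all starts. CGGAAG, the core bound by ETS factors, was in 17.6%, 6.24% and 16.9% in the same order. TATAAA, a box found ahead of many starts, was in 6.26% under a member, 16.7% under no wild-type peak and 13.6% of all starts. ACAAAG, a core of SOX motifs, was in 15.5%, 25.4% and 18.7%, and CCAAT in 30.1%, 35% and 37.4%. TGACTCA, the AP-1 motif, was in 5.11%, 6.69% and 5.20%, and AACCACA, a RUNX core, in 2.60%, 7.61% and 5.27%. The letters GATAAG were in 4.24% of windows under a member, 9.68% under no wild-type peak and 7.45% of all starts. The motifs that contain CG were thus the ones more frequent under members.

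Most members over a start were found in all 3 knockout lists. All 3 knockout lists overlapped 801 of 859 members over a start, or 93.2%, against 3195 of 6203 over no start, or 51.5%. The rule required an overlap for every member, which raises these shares and those given below for members and starts under members. The difference was also present at like strength: with a fold enrichment of 2.5 to 3 the shares were 73.1% (63.8 to 81.2%) over a start and 42.1% (40.3 to 43.9%) elsewhere, and from 3 to 4 they were 93.3% and 64.3%. By length it was 53.4% over a start and 28.7% elsewhere below 500 bp, and 89.0% and 52.6% from 500 bp to under 1000 bp. Of the 1038 internal starts under a member, an Ezh2-cKO peak covered 94.9%, a Utx-cKO peak 98.8% and a Jmjd3-cKO peak 92.9%. Of the 3139 under no wild-type peak, Ezh2-cKO peaks covered 158 (5.03%), Utx-cKO peaks 332 (10.6%) and Jmjd3-cKO peaks 102 (3.25%), an order that is also that of the lists' lengths. No knockout overlap was required of these 3139, so their shares are not a like comparison for starts under members.

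Sharing across the lists was highest with Utx-cKO, the longest list, and lowest with Jmjd3-cKO, the shortest. Peaks of Ezh2-cKO overlapped 5702 members, or 77.7%, against 80.7% of all wild-type peaks. Peaks of Utx-cKO overlapped 6593 members, or 89.9%, against 87.3% of all wild-type peaks, and peaks of Jmjd3-cKO overlapped 5106, or 69.6%, against 75.8%. All 3 lists overlapped 4149 members, or 56.6%, against 69.8% of all wild-type peaks. Since the rule required 1 overlap, these shares are raised by the choice, and the fairer figure is over the 8590 candidates: 66.4% by Ezh2-cKO peaks, 76.8% by Utx-cKO, 59.4% by Jmjd3-cKO, 85.4% in at least 1 list (91.8% of all wild-type peaks) and 48.3% in all 3. The order of the knockouts among members turned round with equally long lists: with each list cut to its 27013 most enriched peaks, there were 6054 members, of which Jmjd3-cKO overlapped 4806, Ezh2-cKO 4459 and Utx-cKO 4162. With the full lists, gene-end peaks were overlapped in 96.5% of cases by Ezh2-cKO, 98.4% by Utx-cKO and 94.7% by Jmjd3-cKO, and intergenic peaks in 66.6%, 77.9% and 57.5% in the same order.

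The gap to the gene-end peaks was also present at like strength, up to a fold enrichment of 4. Among candidates with a fold enrichment of 2.5 to 3, Ezh2-cKO overlapped 54.3%, Utx-cKO 65.2% and Jmjd3-cKO 46.4%, against 78.0%, 88.5% and 68.1% of gene-end peaks of that strength. From 3 to 4 it was 75.4%, 80.7% and 73.2% of candidates, against 94.9%, 97.6% and 93.4% of gene-end peaks. From 6 upwards each of the 440 candidates was overlapped in every list, and of 5745 gene-end peaks 1, 2 and 5 were missed in Ezh2-cKO, Utx-cKO and Jmjd3-cKO. Candidates were overlapped less often than gene-end peaks in 12 of the 15 pairs of strength class and knockout, and also in 12 of 15 with classes of −log10 q. By length the share overlapped in all 3 lists was 21.6% of candidates below 500 bp, against 57.0% of gene-end peaks, and 72.4% against 98.2% from 1000 bp to under 2000 bp. Candidates below 2.5 were overlapped more often than those from 2.5 to 3, at 65.9%, 89.2% and 51.0%.

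**Figure D3:**
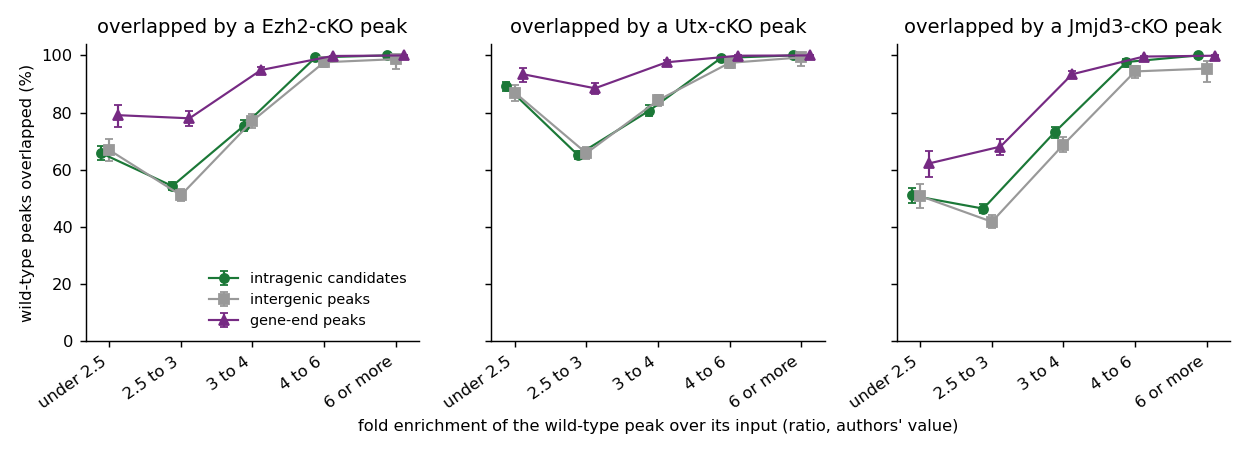
Percentage of wild-type peaks overlapped by a peak of Ezh2-cKO, Utx-cKO or Jmjd3-cKO, by the peak's fold enrichment in wild type, for intragenic candidates (green), intergenic peaks (grey) and gene-end peaks (purple), all under 5000 bp, with 95% exact binomial intervals. Candidates lie with the intergenic peaks and below the gene-end peaks until a fold enrichment of 4, where the curves meet near 100%.

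The 7 combinations of lists differed in strength. The 4149 members shared by all 3 knockouts were 1031 bp long and 3.05-fold enriched at the median, and 982 of them reached 4. Members overlapped in Ezh2-cKO alone (290), Utx-cKO alone (880) or Jmjd3-cKO alone (246) had medians of 2.78, 2.67 and 2.81 and of 467, 454 and 481 bp. The pairs held 1058 members in Ezh2-cKO with Utx-cKO (median 2.65), 205 in Ezh2-cKO with Jmjd3-cKO (2.84) and 506 in Utx-cKO with Jmjd3-cKO (2.73). Outside the group shared by all 3, 16 of 3185 members reached 4. The 1256 candidates with no overlap were like the weakest members, with a median of 2.73 and 385 bp.

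The 3 strongest members of each partial combination had fold enrichments of 3.51 to 4.97 in wild type. Ezh2-cKO alone overlapped members in Akr1d1, a steroid reductase (2.65 in Ezh2-cKO and 4.12 in wild type), Rasal2, a Ras GTPase-activating protein (2.76 and 3.99), and Clasp2, a microtubule plus-end protein (10.68 and 3.75), where the Ezh2-cKO peak spanned 4636 bp against 1184 bp in wild type. Utx-cKO alone overlapped those in Fmn1, a formin (3.35 in Utx-cKO and 4.1 in wild type), Mms22l, a DNA replication repair protein (2.83 and 4.02), and Kat6a, a histone acetyltransferase (2.63 and 3.77). Jmjd3-cKO alone overlapped those in Gnai1, an inhibitory G protein (2.87 in Jmjd3-cKO and 3.65 in wild type), Ap1g1, a clathrin adaptor (3.4 and 3.63), and Mmp16, a membrane-bound metalloproteinase (3.14 and 3.51). Members overlapped in a pair of lists were led by Map4k5, Nrros and Dlc1 in Ezh2-cKO with Jmjd3-cKO, with 4.09, 4.03 and 4.0 in wild type. Tpd52, Cald1 and Dmac2l led Ezh2-cKO with Utx-cKO, with 4.97, 4.59 and 4.46. Frs2, Abl2 and Mrtfb led Utx-cKO with Jmjd3-cKO, with 4.07, 3.74 and 3.70. With 1 library per genotype, absence from a list means that no peak passed the authors' q of 0.05 there.

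Knockout peaks over members were longer at the median than the members, most of all in Utx-cKO. The rule limits the members to under 5000 bp and sets no limit for knockout peaks, and a long peak has more chance to overlap, so ratios above 1 and counts of long knockout peaks are partly set by the choice. The median ratio of knockout to wild-type length was 1.12 for Ezh2-cKO, 1.46 for Utx-cKO and 1.06 for Jmjd3-cKO, with median knockout lengths of 995, 1300 and 980 bp over the members each list overlapped. A knockout peak of 5000 bp or more covered 140 members (2.46%) in the Ezh2-cKO list, 546 (8.28%) in the Utx-cKO list and 114 (2.23%) in the Jmjd3-cKO list. A single knockout peak joined 2 or more members 101 times for Ezh2-cKO, 228 times for Utx-cKO and 93 times for Jmjd3-cKO. These lengths and counts were not taken over gene-end, intergenic or all wild-type peaks. Whether they are particular to the members or run through the whole lists was not tested. Over members the knockout fold enrichment had a median of 2.92 for Ezh2-cKO, 3.23 for Utx-cKO and 3.14 for Jmjd3-cKO, against medians of 3.07, 3.02 and 3.83 over those whole lists. The ChIP libraries of Ezh2-cKO and Utx-cKO, behind the ratios of 1.12 and 1.46, held 34786292 and 34359111 fragments and their inputs 24041619 and 23983492. Their title prefixes differ and each genotype had 1 ChIP library, so genotype and a possible library batch cannot be told apart here.

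Long genes hosted members more often, and short genes held more members per base. Of 13806 genes with any base more than 5 kb from all gene ends, 3528, or 25.6%, hosted a member. The share was 6.65% of eligible genes under 20 kb, 19.7% from 20 to 50 kb, 37.7% from 50 to 100 kb, 52.6% from 100 to 200 kb and 57.5% from 200 kb upwards. Per Mb of such bases the density ran the other way, with 16.1, 12.8, 11.9, 10.3 and 5.22 members. Hosts had a median length of 74.2 kb, against 27 kb for eligible genes with no member. A single member was found in 2025 hosts, 2 in 713, 3 or 4 in 470, 5 to 9 in 266 and 10 or more in 54. Hosts also had a wild-type peak within 2 kb of either end in 81.5% of cases, against 68.9% of eligible genes with no member.

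Within hosts the members leaned towards the start. Of 5805 members with 1 host of known strand, divided over 4 equal stretches of the gene, 27.3% lay in the first, 32.5% in the second, 24.5% in the third and 15.8% in the last. Per Mb of bases more than 5 kb from gene ends, the densities were 10.9, 9.84, 7.44 and 6.31 members. The share over an annotated start was 14.7%, 16.2%, 14.1% and 8.63% along the same stretches, while the median fold enrichment moved little, with 2.88, 2.85, 2.82 and 2.80. Exons and introns were not told apart, since the gene table used gives outer ends alone. The X chromosome held 68 members, or 1.78 per Mb, against 7266 members and 8.92 per Mb on the autosomes. It held 0.927% of the members and 3.18% of the gene-end peaks, and none lay on Y.

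The 10 genes with most members hosted 16 to 23 each. Zbtb20, a zinc-finger transcription factor (chr16:42875689-43634392), hosted 23, of which Ezh2-cKO peaks overlapped 20 and Utx-cKO peaks 22, with 16 in Jmjd3-cKO and 14 in all 3. Rbfox2, a splicing regulator, and Fndc3b, a membrane protein with fibronectin domains, hosted 21 each, with 14 shared by all 3 lists in both. Tns1 and Tns3, tensins that tie integrins to actin, hosted 20 and 18, of which 12 and 8 were shared by all 3. Ttc28, a tetratricopeptide-repeat protein, and Msi2, an RNA-binding protein, hosted 18 each, with 8 and 11 shared. Dst hosted 17 with 11 shared, and Pdzrn3, a ubiquitin ligase, hosted 16 with 5 shared. Zmiz1, a transcriptional coregulator, hosted 17, and every one was overlapped in all 3 lists although their fold enrichment was only 2.15 to 2.79. Counted per 100 kb, Tns1 had 9.33, Rbfox2 9.15 and Zmiz1 8.14, against 3.03 in Zbtb20.

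Genes of cartilage and limb mesenchyme hosted members more often than all eligible genes in the same length classes, and neuronal genes less often, in counts that rest mostly on weak peaks. The longest class, of 200 kb or more, has no upper limit and is a loose match for the neuronal genes. The 14 gene lists were chosen with earlier results of these data known, and their counts are set beside those of genes of like length without a test. Of 21 eligible genes for cartilage regulators and matrix, 16 hosted a member, where the rate of all eligible genes in the same length classes gives 6.5. Their 76 members amounted to 28.6 per Mb, against 8.58 per Mb over all eligible genes, with a median fold enrichment of 2.75. Sox6 hosted 15, Sox5, its partner in cartilage, 10, Trps1, a GATA-type repressor of the growth plate, 10, and Wwp2, a ubiquitin ligase in cartilage, 9. Among matrix genes there were 8 in Col27a1, 4 in Col9a1, 3 in Acan (aggrecan), 3 in Hapln1 (link protein) and 1 in Col2a1 (type II collagen), genes past the first 4 of the list being named after their values were seen. Per base more than 5 kb from gene ends, Acan with 3 in 51872 bp and Col9a1 with 4 in 65148 bp were denser than Sox5 with 10 in 943861 bp. Sox5 had 6 of 10 overlapped by Ezh2-cKO, 8 by Utx-cKO and 7 by Jmjd3-cKO, and Trps1 had 5, 7 and 9 of 10.

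Sox6 had the most members of the cartilage list. Ezh2-cKO peaks overlapped all 15 members, Utx-cKO peaks 9 and Jmjd3-cKO peaks 13, and 9 were shared by all 3. Utx-cKO thus overlapped the fewest here, whereas it overlapped the most over all members. Their fold enrichment in wild type was 2.63 to 5.65, and the highest was the member over the internal start printed above, at chr7:115823293-115825148, with 4.26 in Ezh2-cKO, 5.26 in Utx-cKO, 5.62 in Jmjd3-cKO and 5.65 in wild type. The member nearest to the outer start, 13.6 kb away, lay under an Ezh2-cKO peak of 14453 bp that also took in that start, and no Utx-cKO or Jmjd3-cKO peak reached it. The wild-type list broke the same stretch into a gene-end peak and the member.

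**Figure D4:**
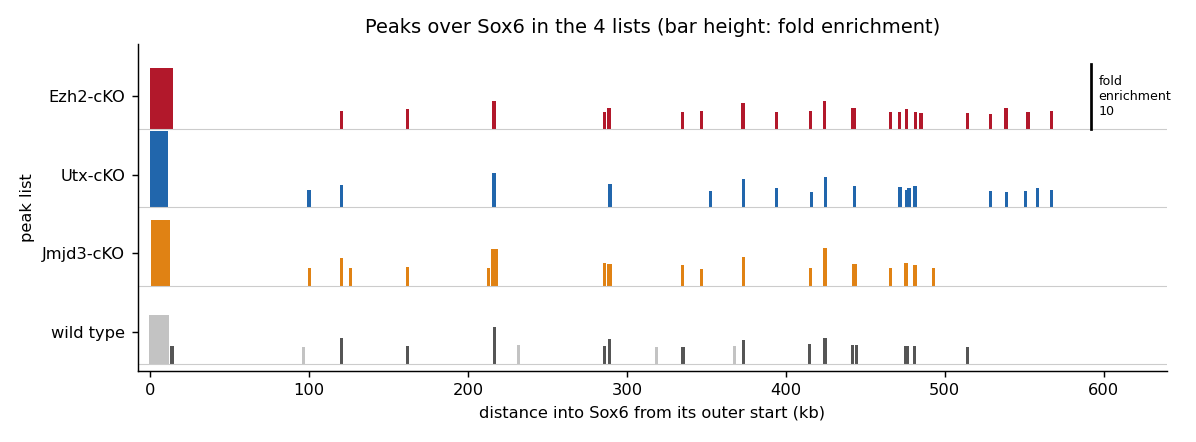
Peaks over Sox6 in the Ezh2-cKO, Utx-cKO, Jmjd3-cKO and wild-type lists by distance from the gene's outer start in kb; bar height is the authors' fold enrichment (scale bar 10) and bars are drawn at least 2 kb wide. Members are dark grey in the wild-type row and its other peaks light grey. The bar at the outer start is the tallest in each of the 4 rows, and the members stand as short bars inside the gene.

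Hypertrophy and bone formation genes hosted in 10 of 18 cases, against 5.6 at the rate of genes of like length. Runx2, the master factor of bone and hypertrophic cartilage, had 8 members, with 6 overlapped by Ezh2-cKO, 8 by Utx-cKO and 6 by Jmjd3-cKO. Mef2c, which drives hypertrophy, had 5, Hdac4, which restrains it, 3 with up to 8.60 in wild type, and Runx3 had 2. Transcription factors of mesenchyme and limb had the highest share, 51 of 55 against 26.2 at the rate of like length, with 227 members. Beside Zbtb20, Nfia had 13 and Tcf4 11, and in Nfix each of the 10 members was overlapped in all 3 lists. This list's genes had a median length of 184 kb.

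The 5 lists of signalling, receptor and adhesion genes also had more hosts than the rate of like length gives. TGF-beta and BMP genes hosted in 22 of 40 cases (13.4 at the rate of like length), led by the coreceptor Tgfbr3 with 7 and by the receptor Bmpr1a, the inhibitory Smad6 and the corepressor Ski with 6 each. Wnt receptors and effectors hosted in 22 of 35 (13.8), led by the receptor Lgr4 with 8 and by the coreceptor Lrp6, the repressor Tcf7l1 and the polarity protein Prickle1 with 7, 7 and 6. In Lrp6 each of the 7 was overlapped in all 3 lists, whereas in Lgr4 2 of 8 were. Hedgehog and cilium genes hosted in 11 of 22 (7.9), with 10 in the coreceptor Boc and 6 each in the effector Gli2 and the coreceptor Cdon, and 5 in Disp1, which releases the ligand. Growth factor and hormone receptors hosted in 24 of 32 (12.5), led by Fgfr2 with 12, Igf1r with 11, the kinase Prkg1 with 10 and Egfr with 8. Cell adhesion and actin genes hosted in 32 of 47 (21.2) with 190 members, including Tns1, Tns3, Dst and 10 in the motor Myo10. The rate of like length lay inside the 95% interval for the Hedgehog list (28.2 to 71.8% hosting), and inside those of the hypertrophy (30.8 to 78.5%), Polycomb (22.4 to 61.2%), connective tissue matrix, muscle (9.93 to 42.3%), endothelial and blood cell lists.

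Connective tissue matrix genes were at the general rate, with 17 of 41 hosting against 16.8, led by Hspg2 (perlecan) with 9 and Ext1, a heparan sulfate polymerase, with 7. Adamtsl3 had 4 and Sulf1, a heparan sulfate sulfatase, 3. Polycomb and demethylase genes hosted in 11 of 27 (8.0). Phc2 had 9, with 6 overlapped by Ezh2-cKO, 9 by Utx-cKO and 5 by Jmjd3-cKO, and Jarid2, a cofactor of the methyltransferase complex, had 3. Kdm2b, which binds unmethylated CG, had 2, at up to 12.93 in wild type, and the Polycomb reader Cbx7 had 2.

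Lists of other cell types were at or below the general rate. Neuronal and synaptic genes, with a median length of 1020 kb, hosted in 22 of 53 cases, against 30.2 at the rate of their length classes, at 0.804 members per Mb, led by Dlg2 and Astn2 with 5 each, Ptprd with 4 and Nrg1 with 3. That rate comes mainly from the pooled 989 genes of 200 kb or more, and genes near the list's own median length were not taken apart. Striated muscle genes hosted in 7 of 30 (11.5), with 4 in Sgcd, 3 in Cacna1c and 2 each in Ldb3 and Ryr1. Endothelial genes hosted in 6 of 21 (6.0), with 3 in Ptprm and 1 each in Egfl7, Ptprb and Calcrl, and blood cell genes in 10 of 29 (11.7), with 8 in Tox, 4 each in Elmo1 and Dock8 and 2 in Skap1. The median fold enrichments of the members in these 4 lists were 3.18, 3.24, 2.99 and 3.02, against 2.75 in the cartilage list.

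Among strong peaks the cartilage list was close to the muscle and neuronal lists in raw share, while mesenchyme and limb factors stayed highest. Hosts per list were few at a 4-fold enrichment. No rate of like length was taken at that cut or at the q cut below. When peaks below a 4-fold enrichment were dropped from every list, 6.27% of all eligible genes hosted a member. The cartilage list then had 3 hosts of 21, against 5 of 30 muscle genes and 7 of 53 neuronal genes. The TGF-beta and BMP list had 1 of 40, the Wnt list 3 of 35, the Hedgehog list 2 of 22 and the receptors 6 of 32. Mesenchyme and limb factors had 14 of 55 and adhesion genes 9 of 47, while blood cell genes had 0 of 29. At a q of 0.001 or less, 14.6% of all eligible genes hosted, with 9 of 21 in the cartilage list, 35 of 55 among mesenchyme factors, 17 of 53 among neuronal genes and 7 of 30 among muscle genes.

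**Figure D5:**
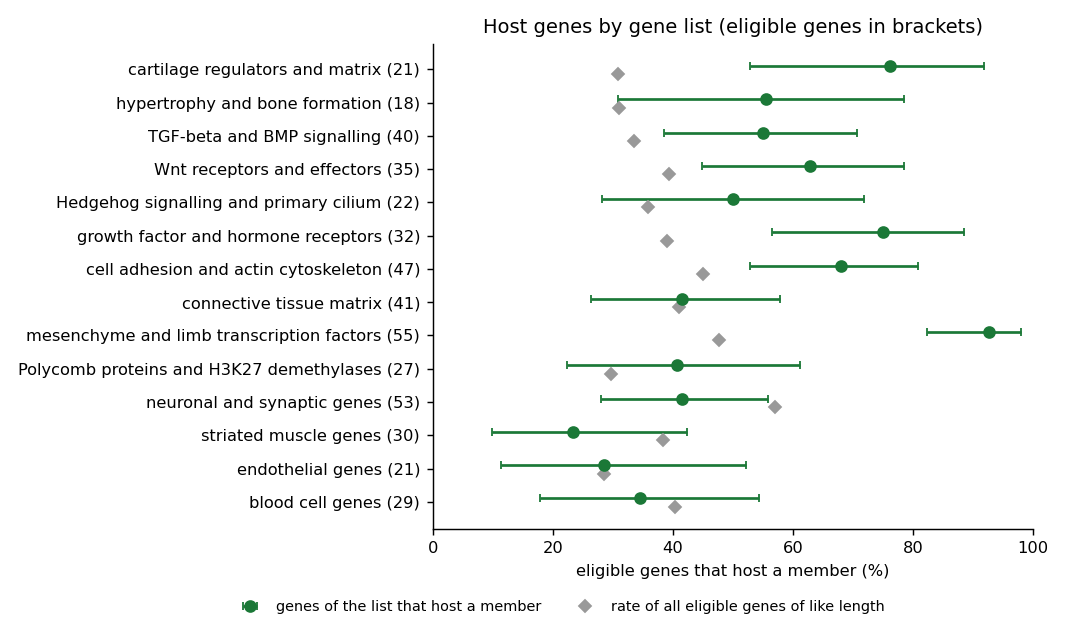
Percentage of eligible genes of each list that host a member (green circles, 95% exact binomial intervals), beside the rate of all eligible genes of like length (grey diamonds), with the number of eligible genes in brackets. Circles lie to the right of the diamonds most clearly for the cartilage, receptor and mesenchyme lists and to the left for neuronal genes, whose interval ends at 55.9%, and for muscle genes, whose interval takes in the diamond.

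Some members covered microRNA hairpins, whose mature sequences are given because Mir148a and Mir148b, on different chromosomes, share a seed. These genes were picked after their values were seen. RefSeq hairpins lay under 12 of the 7334 members. The share of other wild-type peaks over a hairpin was not counted, so the 12 show neither an excess nor a lack. Mir148a, in the host gene model Gm38821, lay under one of the strongest members with no listed start (chr6:51269141-51271403), with 14.96 in Ezh2-cKO, 16.99 in Utx-cKO, 13.96 in Jmjd3-cKO and 14.34 in wild type. Mir148b in Copz1 lay under a weak member with 2.39 in Ezh2-cKO, 2.89 in Utx-cKO, no peak in Jmjd3-cKO and 2.70 in wild type. The seeds, bases 2 to 8 in capitals, are the same in both. Mir26a-1 in Ctdspl had 2.80 in Ezh2-cKO, 3.68 in Utx-cKO, 2.74 in Jmjd3-cKO and 2.89 in wild type. Mir199a-1 in Dnm2, a mesenchymal microRNA gene, had 3.49, 4.9, 3.38 and 2.73 in the same order.
miR-148a-3p: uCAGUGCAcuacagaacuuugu
miR-148b-3p: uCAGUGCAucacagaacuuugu
miR-26a-5p: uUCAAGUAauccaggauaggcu
miR-199a-5p: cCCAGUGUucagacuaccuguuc
miR-199a-3p: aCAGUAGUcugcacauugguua

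Of the 953 members off chromosome 18 with a fold enrichment of 4 or more, 536 (56.2%) lay over a listed start and 417 did not. Of these 417, 112 reached 6, and those 112 were all overlapped in every knockout list. After Zfhx3, the strongest were in Usp42, a deubiquitinase (14.42 in Ezh2-cKO, 14.81 in Utx-cKO, 19.86 in Jmjd3-cKO and 14.83 in wild type), and in Baz1a, a subunit of chromatin remodellers (14.60, 17.95, 21.12 and 14.39 in the same order). Both genes were named after their values were seen. The start table lists a limited set of starts per gene, so lying over no listed start does not show that no start is there.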

How the data were processed

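Peak lists of 4 ChIP libraries, each with 1 input library, were analysed. Broad peaks were called by the authors per library, without pooling, per the file headers: MACS 2.1.2 set the paired-end ChIP fragments against the matching input, at a q of 0.05 and with the larger library scaled to the smaller. FastQC 0.11.5, Bowtie2, HOMER 4.10, deepTools 2.4.1 and ChIPseeker are named in the submitters' processing notes; the genome build is not given in the sources used here. The deposited lists hold a −log10 p-value, a −log10 q-value, a fold enrichment (ratio) and a pileup (coverage signal, not compared here) for every peak. Coordinates were read as GRCm38: 10418 wild-type peaks overlapped a RefSeq GRCm38.p6 start window, against 975 and 973 with the windows moved by 20 kb either way.

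Members and gene lists were chosen with earlier results of these data known. Genes came from the RefSeq table (21883 protein-coding genes on the assembled chromosomes), and all 523 list entries matched. Peaks overlapped from 1 bp. Start windows came from RefSeq (250 bases before to 50 after). A list's count at the rate of like length sums, over its eligible genes, the hosting share of all eligible genes in 5 length classes. The longest class is 200 kb or more, with no upper limit. Named genes were the 10 hosts with most members, the hosts of the 10 most enriched members, of the 3 most enriched per combination of knockouts and of the 3 on either side of each limit, and up to 4 hosts per list; others are said to be chosen after their values were seen. Intervals are exact Clopper-Pearson intervals at 95%. The rule was tested on simulated data. Python 3.11.15, pandas 2.3.3, scipy 1.17.1 and matplotlib 3.10.9 were used.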

Additional observations from a re-analysis of the deposited data

How the results depend on the processing

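Of 369 values recomputed under 12 other settings and 5 more chosen after seeing the data, 291 stayed within 1.5 times a count or within the interval of a share or median. Among counts of host genes per list, 173 of 196 did; at a fold enrichment of 4 or more, 13 of the 14 moved, with the cartilage list at 3 hosts in place of 16. No paired analysis was possible because each genotype had 1 ChIP library and no test was made.

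At a q of 0.001 or less in every list there were 2924 members in 2014 hosts, with 2375 overlapped in Ezh2-cKO, 2691 in Utx-cKO, 2319 in Jmjd3-cKO and 1966 in all 3, while 87.2% of candidates were overlapped and 26.6% of members lay over a start. At a fold enrichment of 4 or more there were 960 members in 865 hosts, with 853 overlapped in Ezh2-cKO, 916 in Utx-cKO, 889 in Jmjd3-cKO and 795 in all 3, while 96.1% of candidates were overlapped and 58.3% of members lay over a start. With equally long lists, Utx-cKO overlapped 4162 members, the lowest of the knockouts in place of the highest, with 75.1% of candidates overlapped in at least 1 list and 14.4% of members over a start.

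The share of candidates overlapped was 82.4% when the overlap had to cover 50% of the shorter peak and 86.3% with a limit of 2 kb to gene ends. It was 82% with Ezh2-cKO left out of the rule, 75.1% with Utx-cKO left out and 82.5% with Jmjd3-cKO left out. The share of members over a start was 13.3% with peaks within 3 kb merged, 15% with the limit at 2 kb and 11% at 10 kb, 10.9% under 3000 bp, 9.90% also away from ends of other genes, 13.7% with Utx-cKO left out and 10.5% with starts of protein-coding genes alone. The causes were not tested, beyond the fewer peaks that each stricter setting keeps.

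One ChIP library per genotype leaves the spread between animals unknown. A peak missing from a list can lie just under the authors' q of 0.05. The members' median −log10 q was 2.79, and 1671 of the 7334 were under 2. Ezh2-cKO and Utx-cKO had almost equal depth and lists of 33739 and 49405 peaks. Their title prefixes differ, so for that pair genotype and a possible library batch cannot be told apart. For the other libraries, genotype and depth cannot be told apart.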
